A study of Mus musculus with 10 samples.

Results

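Protocadherins are described here in mammary tumours of mice that lacked or kept Ezh2, the methyltransferase subunit of the PRC2 complex. The members were all genes of the array table whose single annotated symbol starts with Pcdh, and they came to 35 of the 22180 genes tested. They held 22 genes of the beta cluster, 1 gene of the gamma cluster (Pcdhga10) and 12 genes outside the clusters, while no alpha gene had a probe set of its own symbol alone. A gene was called dim where its mean over the 10 arrays lay below the 40th percentile of all genes (4.56 on the log2 scale) and bright otherwise, which made 26 members dim and 9 bright.

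Total RNA of whole flash frozen endpoint tumours was hybridised to Affymetrix Mouse Gene ST arrays, 1 array per tumour, with 5 Ezh2-/- and 5 Ezh2+/+ tumours. All tumours arose in adult female FVB mice of the Tet-ON PyVmT model, in which an MMTV-driven transactivator responds to doxycycline in the drinking water and switches on polyomavirus middle T antigen and Cre recombinase from 1 transgene, so that both genotypes carried the transgenes and received the drug. In Ezh2-/- tumours Cre removed conditional Ezh2 alleles from the mammary epithelium alone, and stroma, vessels and immune cells kept the gene. Tumours were taken at a set tumour burden and those without Ezh2 appeared later, so genotype and time on doxycycline cannot be told apart.

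Cadherins are calcium-dependent adhesion proteins, and the protocadherins are their largest subfamily. The clustered genes lie in tandem as alpha, beta and gamma arrays, each variable exon with a promoter of its own, and neurons switch on a few of them at random so that a neuron can tell its own branches from those of others. CTCF, cohesin, DNA methylation and H3K9 methylation regulate that choice. Each beta gene consists of a single coding exon, whereas alpha and gamma transcripts share constant exons. The non-clustered protocadherins are spread over the genome and act in tissue patterning, in synapses and at cell contacts outside the brain.

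Upstream regions are shown for a pair of genes in place of the whole family, Pcdh7 and Pcdh18, because they had the highest and the lowest difference between genotypes among the non-clustered members, and because repressors of the Polycomb group are known to occupy promoters rich in CG dinucleotides. Each line gives the 250 bases before the annotated start, 5′ to 3′ on the strand of the gene, from RefSeq (GRCm38.p6), with every CG in capitals. Pcdh7 lies at chr5:57717831-57718080 on the plus strand and Pcdh18 at chr3:49757317-49757566 on the minus strand.
Pcdh7 upstream: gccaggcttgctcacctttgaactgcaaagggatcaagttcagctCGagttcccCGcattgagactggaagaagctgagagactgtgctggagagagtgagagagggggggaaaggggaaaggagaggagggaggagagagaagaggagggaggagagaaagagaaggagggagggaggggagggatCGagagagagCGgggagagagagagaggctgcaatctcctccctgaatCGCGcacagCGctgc
Pcdh18 upstream: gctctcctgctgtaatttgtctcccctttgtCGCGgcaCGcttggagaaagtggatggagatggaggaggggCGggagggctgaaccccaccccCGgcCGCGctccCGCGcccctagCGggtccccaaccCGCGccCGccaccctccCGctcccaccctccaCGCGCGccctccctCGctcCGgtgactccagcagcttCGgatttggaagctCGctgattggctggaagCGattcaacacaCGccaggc
The Pcdh7 stretch held 7 CG and that of Pcdh18 held 23, some of them in CGCG runs.

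Windows of 300 bases around the start (250 before, 50 after) were given for 9 of the 12 non-clustered genes. Their CG counts ran from 4 in Pcdh20 to 26 in Pcdh17, with 11 in Pcdh7 and 23 in Pcdh18. The median was 18 over these 9 genes and 7 over all 27025 promoters of the table, of which 94.2% held at least 1 CG. Of all promoters, 83.2% held fewer CG than that of Pcdh17, 78.4% fewer than that of Pcdh18 and 58.1% fewer than that of Pcdh7. The letters were counted on 1 strand, which for CG is the same as on both, and no chromatin or methylation values were analysed here.

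Levels of Ezh2 itself, 6.36 to 6.50 in Ezh2-/- and 6.98 to 7.69 in Ezh2+/+ tumours, did not overlap, and whether its probes lie in the removed exons was not tested. Median levels per array over all 41345 probe sets were 4.35 to 4.46 in Ezh2-/- and 4.54 to 4.67 in Ezh2+/+ tumours. Over the 22180 genes tested the mean level was 5.25 in Ezh2-/- and 5.23 in Ezh2+/+ tumours, and over the 8872 dim genes it was 3.27 and 3.42. A log2 fold change above 0 (higher in Ezh2-/-) was found in 53.3% of all genes, in 28.8% of dim and in 69.7% of bright genes.

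Beta genes stood higher in Ezh2-/- tumours in most members, and 4 of 22 rose. These were Pcdhb2, Pcdhb3, Pcdhb14 and Pcdhb21, all dim, and all encode adhesion proteins of the beta cluster. By limma, at an adjusted p under 0.05, 7.29% of all genes and 1.49% of dim genes were higher, against 18.2% of the beta genes and 23.5% of the 17 dim beta genes. No member fell by limma or by the adjusted form of the methods' own test, where 7.56% of all genes and 12.7% of dim genes were lower by limma. At an unadjusted p under 0.05, 2 of the 35 members were lower, where 15.6% of all and 27.0% of dim genes were. In the same 4 genes the lowest Ezh2-/- tumour was above the highest Ezh2+/+ tumour, which held for 5.05% of all and 1.26% of dim genes in this direction, and 0 members separated the other way (6.63% of all and 11.1% of dim genes). The log2 fold change was above 0 in 20 of the 22 beta genes (90.9%) and in 16 of the 17 dim ones (94.1%). The median was 0.28 over the beta genes and 0.31 over the dim ones, beside 0.026 over all genes and -0.14 over all dim genes. The beta median stayed above 0 after quantile normalization, median centring and cyclic loess, with 20, 21 and 21 beta genes above 0. The median over all genes was 0.0017, 0.20 and 0.0060 in these settings. Median centring raised the difference of every gene by the same amount, so it could not lower the beta median.

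Values below are log2 levels in the order of replicates 1 to 5. Pcdhb2 stood at 4.02, 4.77, 3.89, 4.24 and 4.11 in Ezh2-/- tumours and at 2.77, 3.19, 3.21, 3.07 and 3.10 in Ezh2+/+ tumours. Its lowest Ezh2-/- tumour was well above the highest Ezh2+/+ tumour. The means were 4.21 ± 0.34 and 3.07 ± 0.18 (SD, n = 5 each), a log2 fold change of 1.14 (standard error, SE, 0.16, adjusted p = 0.00115, limma) or 2.21-fold. Pcdhb3, its neighbour in the cluster, stood at 4.61, 5.29, 4.78, 5.04 and 4.35 in Ezh2-/- and at 3.99, 3.75, 3.52, 3.33 and 3.64 in Ezh2+/+ tumours. The genotypes were parted again, with replicate 2 highest among the Ezh2-/- tumours of both genes. For Pcdhb3 the means were 4.81 ± 0.37 and 3.64 ± 0.25 (SD, n = 5 each) and the log2 fold change was 1.17 (SE 0.18, adjusted p = 0.00197, limma), or 2.25-fold. Both genes passed in each of the 10 fits that left out 1 tumour. The study shows Pcdhb2 among putative targets of the transcription factor Foxc1. It picked these for a higher level in Ezh2-/- tumours and for enrichment of the histone mark H3K27me3. The direction of Pcdhb2 here is therefore not independent evidence, which holds for Pcdhb16 below too. The study also lists PCR primers for Pcdhb16, and its tests of cells treated with an Ezh2 inhibitor were not analysed here.

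Pcdhb14 was more uneven, at 4.26, 6.10, 4.81, 5.01 and 4.44 in Ezh2-/- and at 4.01, 4.06, 3.70, 3.91 and 3.54 in Ezh2+/+ tumours. Replicate 2 stood apart at the top of the Ezh2-/- range, while replicate 1 lay only just above the Ezh2+/+ tumours. The means were 4.92 ± 0.72 and 3.84 ± 0.22 (SD, n = 5 each) and the log2 fold change was 1.08 (SE 0.28, adjusted p = 0.0254, limma). The call was lost without Ezh2-/- replicate 4 (adjusted p = 0.0598), without Ezh2+/+ replicate 3 (0.0524) and without Ezh2+/+ replicate 5 (0.0632), and under the adjusted form of the methods' own test (0.0793).

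Pcdhb21, at the low end of the scale, stood at 2.50, 3.01, 2.77, 2.72 and 2.58 in Ezh2-/- and at 2.37, 2.10, 2.14, 2.38 and 1.98 in Ezh2+/+ tumours. The ranges came close to each other without overlap. Its means were 2.72 ± 0.20 and 2.19 ± 0.17 (SD, n = 5 each) and its log2 fold change was 0.52 (SE 0.12, adjusted p = 0.0178, limma), or 1.44-fold, with a call in all 10 fits without a tumour.

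**Figure D1:**
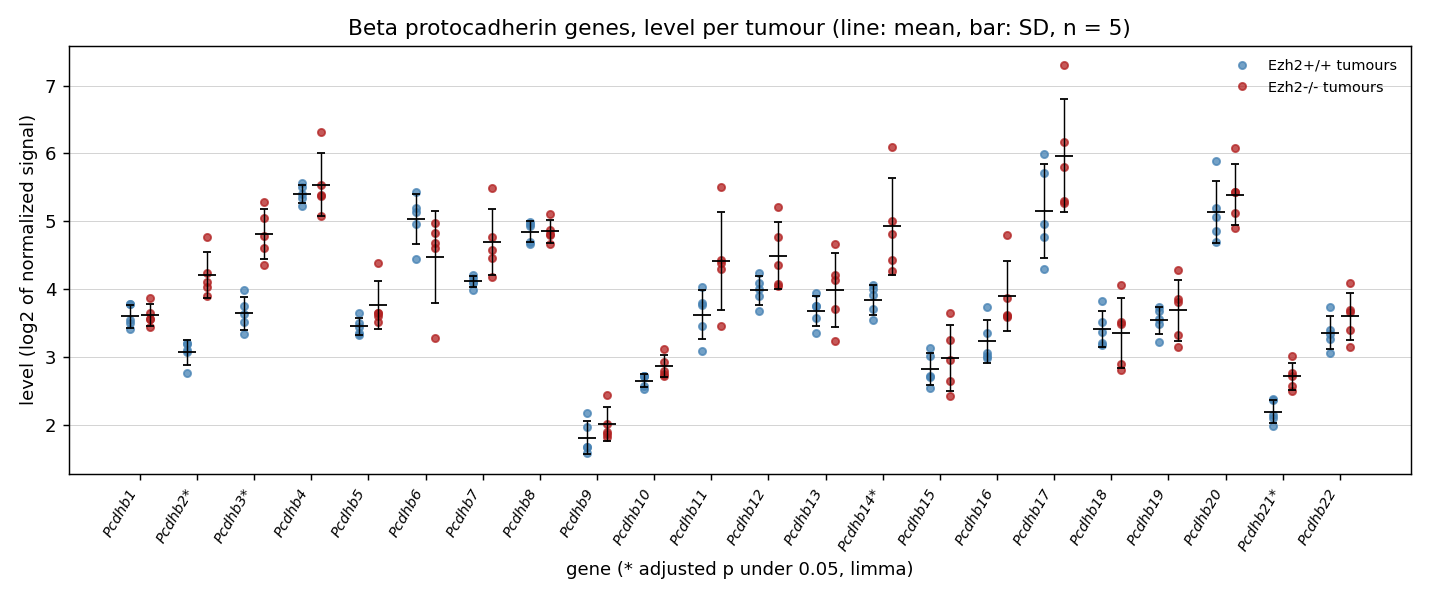
Log2 level of the 22 beta genes in each tumour (points, n = 5 per genotype), by genotype, with mean and SD (bars) and a star at genes with an adjusted p under 0.05 from limma. Pcdhb2, Pcdhb3, Pcdhb14 and Pcdhb21 show no overlap between the genotypes, whereas the Pcdhb17 values from 4.29 to 7.30 do overlap.

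At an unadjusted p under 0.05, 8 of the 22 beta genes were higher and 0 lower, all 8 of them dim, where 18.0% of all and 4.67% of dim genes were higher, and 15.6% and 27.0% were lower. The 4 that missed the adjusted threshold were Pcdhb7, Pcdhb11, Pcdhb12 and Pcdhb16, named here after their values were seen, apart from Pcdhb16, which the study lists among its genes. Pcdhb16 stood at 3.61, 4.79, 3.61, 3.59 and 3.87 in Ezh2-/- and at 3.35, 3.74, 2.99, 3.06 and 3.02 in Ezh2+/+ tumours. Replicate 2 was far above the rest of its genotype, and 2 of 5 Ezh2-/- tumours were above all Ezh2+/+ tumours. The log2 fold change was 0.66 (SE 0.23, adjusted p = 0.0702, limma), and it passed after quantile normalization (0.84, adjusted p = 0.0458) and without Ezh2+/+ replicate 2 (adjusted p = 0.0425).
Pcdhb7 stood at 4.57, 5.49, 4.76, 4.46 and 4.18 in Ezh2-/- and 4.16, 4.11, 4.21, 4.09 and 3.99 in Ezh2+/+ tumours, and Ezh2-/- replicate 5 was the tumour that fell within the other genotype. Its log2 fold change was 0.58 (adjusted p = 0.0626, limma). Pcdhb11 stood at 4.29, 5.50, 4.38, 4.43 and 3.46 in Ezh2-/- and 3.79, 4.03, 3.45, 3.77 and 3.09 in Ezh2+/+ tumours, again with replicate 5 inside the Ezh2+/+ range. Its log2 fold change was 0.79 (adjusted p = 0.0913) and that of Pcdhb12 was 0.51 (adjusted p = 0.111). Without Ezh2-/- replicate 5, Pcdhb7 and Pcdhb11 passed, in a fit where 11.4% of all and 1.57% of dim genes were higher.

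With the thresholds of the study, an unadjusted p under 0.05 from its own test and a fold change over 1.5, 4 members were higher, Pcdhb2, Pcdhb3, Pcdhb14 and Pcdhb16, and 0 lower. Under the same rule 4.79% of all genes, 0.947% of dim and 7.36% of bright genes were higher, and 4.28%, 7.07% and 2.43% were lower. Pcdhb21 missed that rule by its fold change.

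None of the 5 bright beta genes passed. By limma 0 were higher or lower also at an unadjusted p under 0.05, where 26.8% of bright genes were higher and 7.94% lower, and 0 passed in the adjusted form of the methods' own test. Their median log2 fold change was 0.13, beside 0.15 over all bright genes. Pcdhb17 stood at 5.27, 7.30, 5.80, 6.17 and 5.30 in Ezh2-/- and at 6.00, 4.97, 4.77, 5.71 and 4.29 in Ezh2+/+ tumours. Both genotypes spread widely and overlapped. The log2 fold change was 0.82, but its SE was 0.40 (adjusted p = 0.168, limma), and it was 0.49 without Ezh2-/- replicate 2. Pcdhb6 went the other way, at 4.68, 4.97, 4.83, 4.61 and 3.29 in Ezh2-/- and 4.44, 5.14, 5.20, 4.96 and 5.43 in Ezh2+/+ tumours. The log2 fold change of -0.56 (SE 0.29, adjusted p = 0.193) was the lowest of the cluster, and it was -0.26 without Ezh2-/- replicate 5.
Pcdhb4 stood at 5.08, 6.32, 5.53, 5.37 and 5.39 in Ezh2-/- and 5.41, 5.56, 5.50, 5.22 and 5.35 in Ezh2+/+ tumours, with replicate 2 alone above the others. Its log2 fold change was 0.13 (adjusted p = 0.658) and turned to -0.063 without that tumour and to -0.0040 after quantile normalization. Pcdhb20, at 5.11, 6.09, 5.44, 5.42 and 4.89 against 5.89, 5.06, 4.85, 5.19 and 4.70, also overlapped, with a log2 fold change of 0.25 (adjusted p = 0.490) that was 0.079 without Ezh2-/- replicate 2. Pcdhb8, the fifth bright gene, had one of 0.0039 (adjusted p = 0.986). The other dim beta genes lay between -0.063 in Pcdhb18 and 0.31 in Pcdhb5 and in Pcdhb13, with 0 passing.

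**Figure D2:**
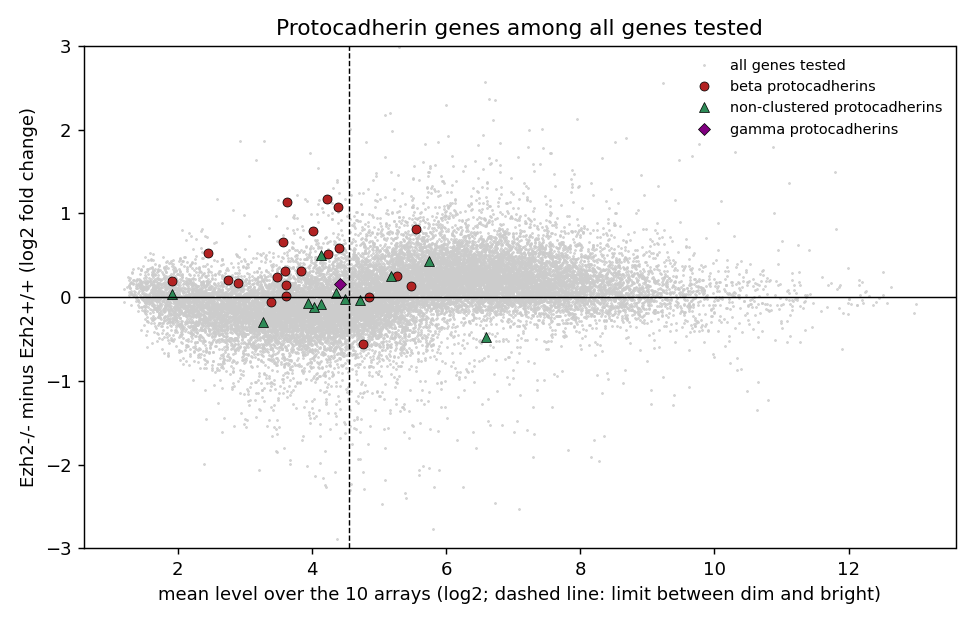
Mean log2 level over the 10 tumours against the log2 fold change (Ezh2-/- minus Ezh2+/+) of all genes tested (grey) with the protocadherins in colour by group and a line at the limit between dim and bright. The 4 called beta genes lie left of the limit of 4.56, where 28.8% of genes are above 0, and 14 genes lie beyond the vertical axis.

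One Ezh2-/- tumour carried the highest beta values. Replicate 2 was the highest of all 10 tumours in 20 of the 22 beta genes, whereas over all genes it was the highest in 13.4% and over dim genes in 5.29%. The mean of the 22 beta genes was 4.73 in that tumour, 3.74 to 4.12 in the other Ezh2-/- tumours and 3.58 to 3.81 in the Ezh2+/+ tumours. Its mean correlation with the other arrays of its genotype over all 41345 probe sets was 0.976, within the range of 0.968 to 0.978 for that genotype. Without it, 16 of the 22 beta genes had a log2 fold change above 0 and the median fell to 0.14, and the same 4 genes passed. Low values were spread over more tumours, with Ezh2-/- replicate 5 lowest of its genotype in 10 beta genes, Ezh2-/- replicate 1 in 7, and Ezh2+/+ replicate 5 lowest of its genotype in 10.

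**Figure D3:**
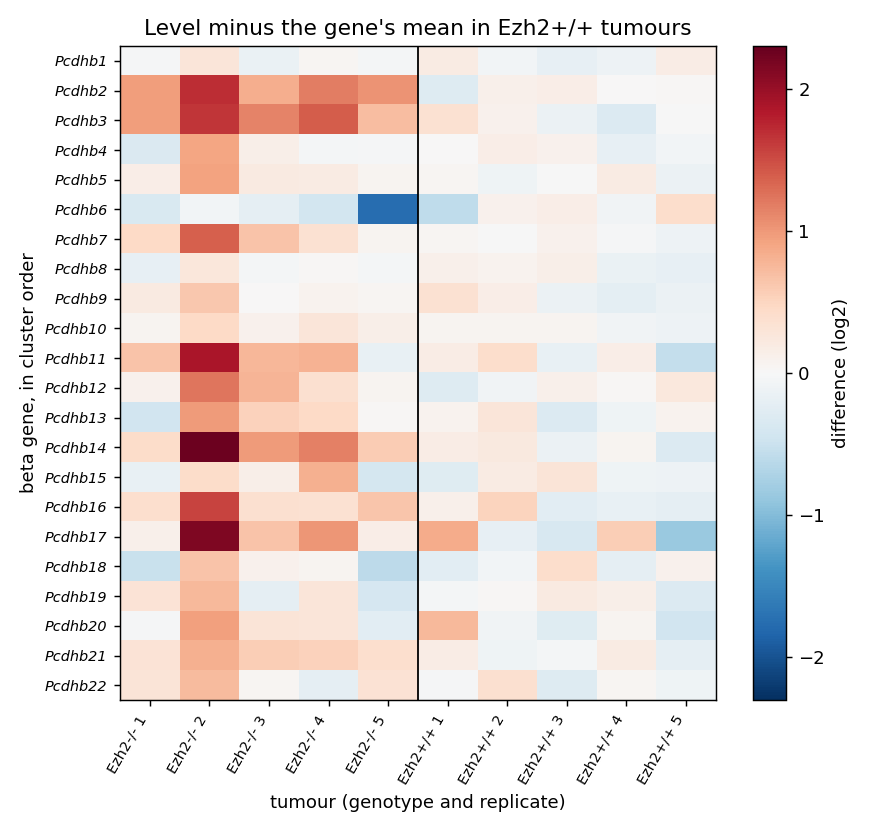
Log2 level of each of the 22 beta genes (rows, numbered along the cluster) in each of the 10 tumours (columns) minus the mean of that gene in Ezh2+/+ tumours. The column of Ezh2-/- replicate 2 is the highest in 20 rows, and the rows of Pcdhb2, Pcdhb3, Pcdhb14 and Pcdhb21 are above 0 in all Ezh2-/- columns.

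In the RefSeq annotation the beta genes 1 to 22 follow each other in numerical order on chromosome 18, with 0 other coding genes between them. Of the genes that rose, Pcdhb2 and Pcdhb3 are neighbours, and Pcdhb14 and Pcdhb21 stand apart. Pcdhb1 and Pcdhb4, which flank the first pair, had log2 fold changes of 0.015 and 0.13. Pcdhb13 and Pcdhb15, on the sides of Pcdhb14, had 0.31 and 0.16, and Pcdhb20 and Pcdhb22, beside Pcdhb21, had 0.25 and 0.24. None of these 6 passed. The nearest measured coding genes of other families, Hars2 and Zmat2 before the cluster and Slc25a2, Taf7 and Diaph1 after it, had log2 fold changes from -0.089 to 0.47 with 0 called. The sequences of the beta genes are alike, and probes shared between them were not tested, since probe sequences were not used here.

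**Figure D4:**
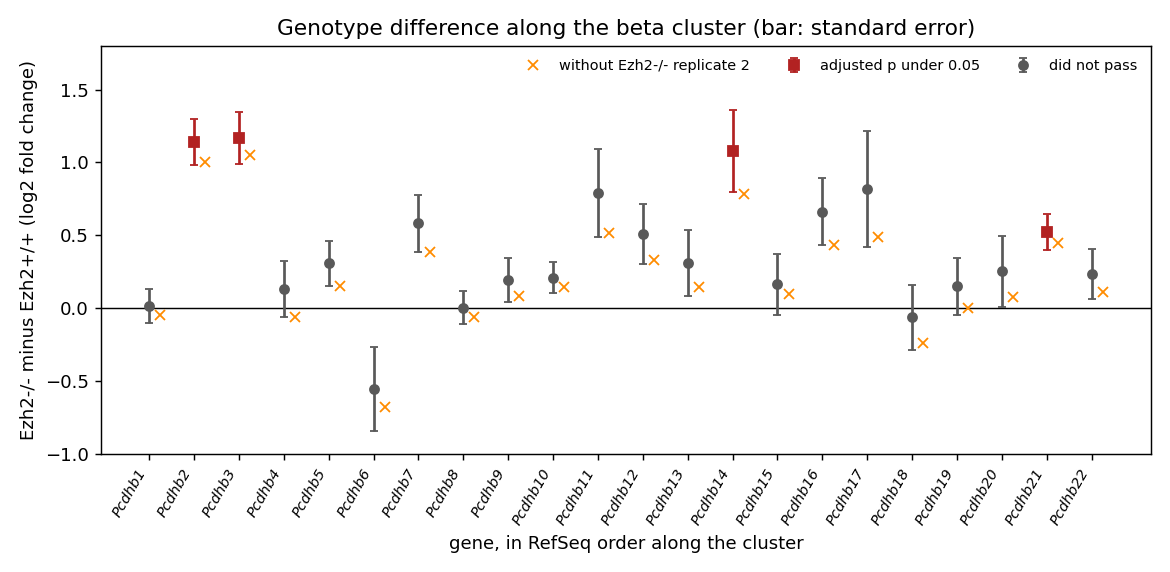
Log2 fold change (Ezh2-/- minus Ezh2+/+, bars of standard error from limma) of the 22 beta genes in their order along the cluster. Red squares passed an adjusted p under 0.05, grey circles did not, and orange crosses give the value without Ezh2-/- replicate 2. The values run from -0.56 (Pcdhb6) to 1.17 (Pcdhb3), and the called genes lie at 3 separate places.

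Alpha and gamma transcripts were seen mainly through probe sets that several genes of a cluster share, and those probe sets are given no gene name. The probe set of 9 alpha genes stood at 4.73, 4.91, 4.73, 4.83 and 5.04 in Ezh2-/- and at 5.45, 5.09, 5.53, 5.02 and 5.75 in Ezh2+/+ tumours. The genotypes touched in 1 tumour each, with Ezh2-/- replicate 5 just above Ezh2+/+ replicate 4. The means were 4.85 ± 0.13 and 5.37 ± 0.31 (SD, n = 5 each), that is, a log2 difference of -0.52 (SE 0.15, adjusted p = 0.0349 by limma over all 41345 probe sets, of which 5.25% were higher and 10.7% lower). The call was lost after quantile normalization (adjusted p = 0.0818), after median centring (0.0867), under the adjusted form of the methods' own test (0.0575) and without any one of Ezh2-/- replicates 1 to 4 or Ezh2+/+ replicates 1, 3 and 5 (0.0603 to 0.0775). It stood below 0 in each of these fits.
Pcdhga10, the gamma gene with a probe set of its own, stood at 4.34, 4.61, 4.44, 4.67 and 4.42 in Ezh2-/- and 4.48, 4.37, 4.20, 3.97 and 4.67 in Ezh2+/+ tumours, with full overlap. Its log2 fold change was 0.16 (SE 0.13, adjusted p = 0.436, limma). The probe set of 9 gamma genes had one of 0.052 (adjusted p = 0.838). A further 2 probe sets that a protocadherin shares with a gene of another family were at -0.24 (adjusted p = 0.218) and 0.094 (adjusted p = 0.541).

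The 12 non-clustered genes showed no common direction, and 0 passed, either by limma or by the adjusted form of the methods' own test. At an unadjusted p under 0.05, Pcdh1 and Pcdh7 were higher and Pcdh18 and Pcdh9 lower, where 18.0% of all genes were higher and 15.6% lower. The log2 fold change was above 0 in 5 of 12 (41.7%), where 53.3% of all genes were. Of the 8 dim members 3 were above 0 (37.5%, median -0.050), beside 28.8% and a median of -0.14 over all dim genes. Of the 4 bright members 2 were (50%, median 0.11), beside 69.7% and 0.15 over all bright genes. The median over the 12 genes was -0.030 and turned positive after quantile normalization (0.085), cyclic loess (0.083) and median centring (0.14). The median over all genes was 0.026 as deposited and 0.0017, 0.0060 and 0.20 in these settings, so after median centring the non-clustered median stayed below it. Over the 9 bright members of all groups 0 passed by limma (1 was higher and 1 lower at an unadjusted p under 0.05), where 11.2% of bright genes were higher and 4.10% lower, and 0 had genotypes without overlap, where 7.58% of bright genes were higher and 3.65% lower.
Pcdh18, a protocadherin of the delta type, stood at 6.25, 6.57, 6.38, 6.68 and 5.89 in Ezh2-/- and 6.71, 6.58, 7.00, 7.39 and 6.49 in Ezh2+/+ tumours. Of the Ezh2-/- tumours 3 were below all Ezh2+/+ tumours. The means were 6.35 ± 0.31 and 6.83 ± 0.37 (SD, n = 5 each) and the log2 fold change was -0.48 (SE 0.19, adjusted p = 0.101, limma). It passed after quantile normalization (-0.71, adjusted p = 0.0267) and after cyclic loess (-0.69, adjusted p = 0.0262).
Pcdh7, first described in brain and heart, moved the other way, at 4.52, 4.67, 4.16, 4.54 and 4.02 in Ezh2-/- and 4.27, 4.14, 4.08, 3.29 and 3.61 in Ezh2+/+ tumours. Of the Ezh2-/- tumours 3 were above all Ezh2+/+ tumours, and the log2 fold change was 0.50 (SE 0.20, adjusted p = 0.0960, limma). It passed after median centring (0.67, adjusted p = 0.0342), a setting in which 23.5% of all genes were higher. Its promoter is the one printed above with the fewer CG, and a link between CG counts and levels was not tested.
Pcdh1, a protocadherin of epithelia such as the airway and skin, stood at 5.83, 6.26, 6.10, 6.07 and 5.55 in Ezh2-/- and 5.71, 5.42, 5.67, 5.69 and 5.19 in Ezh2+/+ tumours. Replicate 5 was the Ezh2-/- tumour within the Ezh2+/+ range. The log2 fold change was 0.43 (SE 0.15, adjusted p = 0.0719) and passed the threshold without that tumour (0.53, adjusted p = 0.0223) and after median centring (0.60, adjusted p = 0.0238). Without that tumour 11.4% of all genes were higher, and after median centring 23.5%.
Pcdh12, which encodes a protocadherin of vascular endothelium, stood at 5.26, 5.52, 5.22, 5.28 and 5.28 in Ezh2-/- and 5.36, 5.05, 4.74, 5.23 and 4.91 in Ezh2+/+ tumours. The genotypes overlapped, and the log2 fold change was 0.25 (SE 0.13, adjusted p = 0.182). It was 0.43 after median centring (adjusted p = 0.0419), where 23.5% of all genes were higher. Pcdh9 had a log2 fold change of -0.30 (adjusted p = 0.128), with 3 Ezh2-/- tumours below all Ezh2+/+ tumours. The other 7, among them Pcdh15 of the inner ear hair bundle, Pcdh8 of somite formation, Pcdh10 and the X-linked Pcdh19 and Pcdh11x, lay between -0.12 (Pcdh17) and 0.053 (Pcdh19). A second probe set of Pcdh15 was at -0.17 beside -0.089 for the first.

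**Figure D5:**
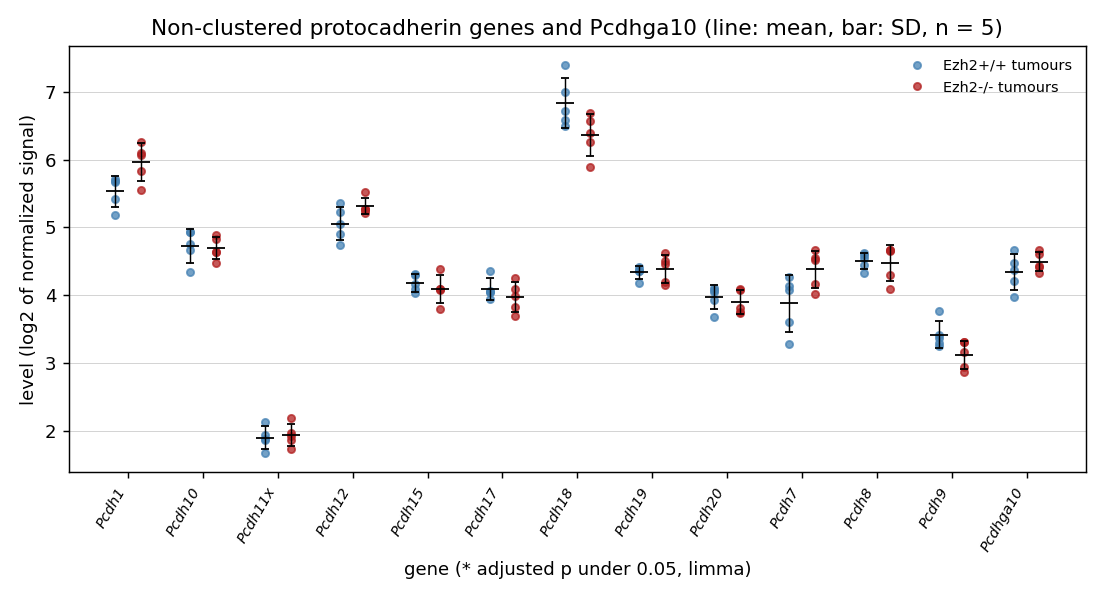
Log2 level of the 12 non-clustered genes and Pcdhga10 in each tumour (points, n = 5 per genotype), by genotype, with mean and SD (bars). The genotypes overlap in all 13 genes, with 4 of 5 Ezh2-/- tumours above the Ezh2+/+ tumours in Pcdh1 and 3 below them in Pcdh18.

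Genes around the family were read from lists of known roles. Of 16 measured regulators of the clusters (CTCF, cohesin and silencing factors), 1 was higher and 0 lower, with a median log2 fold change of 0.31 beside 0.15 over all bright genes. All 16 were bright, and of all bright genes 11.2% were higher and 4.10% lower. The gene that rose was Lrif1, a partner of the silencing factor Smchd1, at 0.34 (adjusted p = 0.0408, limma), a call that held in 1 of 10 fits without a tumour and was lost after quantile normalization (0.099, adjusted p = 0.549). Wiz, which encodes a zinc finger protein bound at CTCF sites, and the cohesin gene Smc1a stood at 0.39 (adjusted p = 0.0768) and 0.51 (adjusted p = 0.101) and missed the threshold.
Of 17 measured partners of protocadherin proteins, all bright, 4 were higher and 0 lower, with a median of 0.19, where 11.2% of bright genes were higher. In the adjusted form of the methods' own test 2 of the 17 passed. Cyfip2, a subunit of the WAVE complex that drives actin branching, rose by 0.77 (SE 0.14, adjusted p = 0.00591), and Ptk2b, the kinase Pyk2 that clustered protocadherins inhibit, rose by 0.84 (SE 0.17, adjusted p = 0.00823). Both passed in each fit without a tumour. Taok2, a kinase, rose by 0.59 (adjusted p = 0.0247) and Axin1, a scaffold of the Wnt pathway named here after its value was seen, by 0.37 (adjusted p = 0.0468). They passed in 6 and 2 of 10 such fits and were lost after quantile normalization.
Among 21 classical cadherins 1 was higher and 2 lower, with a median of 0.0029. Over all genes 7.29% were higher and 7.56% lower. Cdh11, a mesenchymal cadherin, rose by 1.18 (adjusted p = 0.0366), while Cdh4 fell by 0.52 (adjusted p = 0.0167) and Cdh8 fell by 0.41 (adjusted p = 0.0303). Cdh11 and Cdh8 were lost after quantile normalization and each passed in 4 of 10 fits without a tumour, and Cdh4 passed in all 10 but was lost after median centring (adjusted p = 0.0509). Of 23 other cadherin superfamily genes, 1 was higher (Celsr2, a planar polarity receptor, 1.17, adjusted p = 0.0278) and 2 were lower (Clstn3, -0.59, adjusted p = 0.0381, and Cdhr3, -0.50, adjusted p = 0.0383). All 3 were lost after quantile normalization and in the adjusted form of the methods' own test. The shares of 7.29% and 7.56% over all genes stand beside these counts too.

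Whole tumours hold several cell types, and a change in the share of a cell type and a change of RNA per cell cannot be told apart in them. Beside the counts below, 7.29% of all and 11.2% of bright genes were higher by limma, and 7.56% and 4.10% lower. At an unadjusted p under 0.05, 18.0% of all and 26.8% of bright genes were higher, and 15.6% and 7.94% lower. Fibroblast markers were higher in 8 of 12, with a mean level per tumour of 6.60 to 7.75 in Ezh2-/- and 5.32 to 6.45 in Ezh2+/+ tumours, endothelial markers in 6 of 12 (5.92 to 6.55 against 5.52 to 5.98) and macrophage markers in 3 of 10 (6.94 to 7.72 against 6.53 to 7.21). Luminal epithelial markers passed in 0 of 12 by limma (1 higher and 2 lower at an unadjusted p under 0.05), at 8.38 to 8.89 in Ezh2-/- and 8.48 to 8.80 in Ezh2+/+ tumours. Markers of Schwann cells and neurons passed in 0 of 15 (3 higher and 3 lower at an unadjusted p under 0.05). Their mean level was 4.93 to 5.07 in Ezh2-/- and 4.86 to 5.00 in Ezh2+/+ tumours, and 7 of these 15 were dim. Ezh2-/- replicate 2, highest in the beta genes, had 6.75 for fibroblasts, the second lowest of its genotype, 5.11 for adipocytes, the lowest, and 8.89 for luminal epithelium, the highest of all 10 tumours. Skeletal muscle markers stood at 8.15 and 7.06 in Ezh2-/- replicates 1 and 5 and at 4.53 to 5.07 in Ezh2+/+ tumours, with 0 of 12 passing and 4 higher at an unadjusted p under 0.05. In the adjusted form of the methods' own test 5 fibroblast, 2 endothelial, 1 macrophage and 0 luminal, nerve, muscle or adipocyte markers passed, and by limma 1 of 9 adipocyte markers was higher. The part of these cell types in the protocadherin values was not tested.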

How the data were processed

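Total RNA of 5 Ezh2-/- and 5 Ezh2+/+ tumours was measured on 1 Affymetrix Mouse Gene ST array each. The authors summarised the scans to normalized levels in Affymetrix Expression Console and compared genotypes in Transcriptome Analysis Console, as the submitters' processing notes and the methods name them. The deposited values ran from 0.595 to 13.2 and were taken as log2, since the algorithm and the log base are not given in the sources used here. All 10 value columns belonged to the series. Array correlations were 0.965 to 0.982 within and 0.930 to 0.962 between genotypes, and 0 pairs were identical.

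Of 41345 probe sets, 23521 had 1 gene symbol, 1820 several and 16004 were not listed in the annotation of the array. Where several probe sets of 1 symbol stood for a gene, the one brightest on average across the arrays was kept, which left 22180 genes, and dim genes were not filtered out. In the family only Pcdh15 had more than 1 such probe set, and 4 further probe sets carried several symbols. All 35 members matched RefSeq by Entrez ID. Genotypes were compared with limma 3.58.1 in R 4.3.3, with two-sided p-values adjusted by Benjamini-Hochberg over all genes and a call at an adjusted p under 0.05. The replicates are labelled as biological, and the sources used here do not say whether each tumour came from its own mouse, so p-values measure the spread between these tumours, and the number of arrays limits the precision.

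Protocadherins were named where they passed, where the study names them (Pcdhb16 in its tables, Pcdhb2 in a figure), and, in each group, as the 3 of highest mean and the highest and lowest difference, with up to 3 genes of smallest p in each list. Other names were added after their values were seen. The members, lists and rules were chosen with earlier results of these data known. Alternatives were the methods' own test, plain and at the study's thresholds, array weights, a robust prior with an intensity trend, cyclic loess, median centring and quantile normalization, a filter on the 40% dimmest genes, the mean of probe sets, all probe sets, other limits of brightness, the replicate number as a block and leaving out each tumour. They were applied to the shared alpha probe set after the data were seen. The test was tried on simulated data. What is called the methods' own test was run again here as an equal-variance t-test per gene or probe set. The methods name an ANOVA in Transcriptome Analysis Console, whose output was not used. Promoters came from RefSeq (GRCm38.p6). Figures were drawn with matplotlib 3.10.9 and pandas 2.3.3 in Python 3.11.15. The chromatin, cell line, transplant and patient experiments of the study were not analysed here.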

Additional observations from a re-analysis of the deposited data

Results flagged for a closer look

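Within each genotype, the highest and lowest tumour of every protocadherin was set against the others by Dixon's test. Of 70 groups of 5 tumours, 5 held a tumour that stood apart, where chance gives about 1 in 20 groups, and 3 of the 5 were Ezh2-/- replicate 2. That tumour had 4.38 for Pcdhb5 (next highest 3.65), 4.79 for Pcdhb16 (next highest 3.87) and 5.52 for Pcdh12, the endothelial protocadherin (next highest 5.28). Ezh2-/- replicate 5 had 3.29 for Pcdhb6, below 4.61 to 4.97 in the rest of its genotype. Ezh2+/+ replicate 5 had 4.18 for Pcdh19, where the next lowest was 4.35. The levels are log2 values, and the cause was not tested.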

How the results depend on the processing

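Of the 4 protocadherins higher by limma, Pcdhb2 and Pcdhb3 passed in each alternative that tested them, including those without 1 tumour, and so did Pcdhb21 but for the study's fold threshold. Pcdhb14 was lost in 3 of 10 fits without 1 tumour and in the adjusted form of the methods' own test. That test left 3 members higher, where 3.89% of all genes were higher. The filter on the 40% dimmest genes removed all 4 and left 5 of the 22 beta genes, with 0 higher. Centring each array on its median, after which the typical gene stood at 0.20 in place of 0.026 (median log2 fold change), gave 12 members higher, 9 of them beta and 2 bright, where 23.5% of all genes were higher. Array weights gave 7 members higher, 1 of them bright (Pcdh1). Calls rose in general with these weights, as 1.93% of dim genes were higher, beside 1.49% without weights. The share of all genes that were higher also exceeded the 7.29% found without weights. With the 25th percentile as the limit, 2 of the called genes counted as bright. Quantile normalization gave 6 members higher, where 3.26% of all genes were higher, and cyclic loess gave 4, where 3.44% were. Both settings also gave 1 member lower, Pcdh18. Leaving out 1 tumour gave 3 to 7 members higher and 3 to 6 beta genes, with 7 and 6 without Ezh2-/- replicate 5, 0 to 1 bright members and 0 lower in each. In these fits 3.37% to 11.4% of all genes were higher, with 11.4% without Ezh2-/- replicate 5.

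The beta median lay between 0.14 and 0.37 without 1 tumour, the gamma value between 0.064 and 0.24 and the non-clustered median between -0.062 and 0.026. The value of Pcdhb4 lay between -0.063 and 0.25. The non-clustered median, -0.030 as deposited, became 0.085 after quantile normalization, 0.083 after cyclic loess and 0.14 after median centring. Median centring raised every gene by the same amount, and the median over all genes became 0.20. Without the dimmest genes the non-clustered median was 0.11, which is that of the 4 bright genes left. Pcdhb4 turned from 0.13 to -0.0040 after quantile normalization and to -0.063 without Ezh2-/- replicate 2. No median could be given for alpha genes, which had no probe set of their own, and the cause of the other shifts was not tested.

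The genotypes share replicate numbers, but nothing says that a number marks a pair. Deviations of same-numbered tumours correlated at -0.042 to 0.34, and 4 of 10 tumours correlated best with their own number. With the replicate number as a block, 8 members were higher, 7 of them beta and 1 bright, and 1 was lower. In that fit 11.5% of all genes were higher.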
